A study of Mus musculus with 11 samples.

Results

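The cells described here are colonic macrophages (CMs) of wild type (WT) mice that carried messenger RNA of Ccr2, the chemokine receptor that blood monocytes use to enter tissue. They were chosen by counts in the WT CM library: at least 2 unique molecular identifiers (UMIs, each the tag of 1 captured RNA molecule) of Ccr2 and at least 5 UMIs summed over C1qa, C1qb and C1qc, which encode the chains of complement C1q. The rule found 772 of the 4989 cell barcodes of that library, out of 51712 barcodes in the series. After cells of outlying depth or mitochondrial content were left out, 759 Ccr2-expressing CMs remained among 4580 cells. They were set against 3416 cells of the same library with 0 Ccr2 UMIs and the same C1q rule, called Ccr2-0 CMs. A count of 0 does not show that a cell lacked Ccr2 RNA, since droplet sequencing captures a part of the RNA of each cell. Of the markers given for these cells, Cd74, the invariant chain of MHC class II, was high, whereas Ly6c2, which encodes the Ly6C antigen of inflammatory monocytes, was nearly absent. The sort took cells without Ly6C, and its part in the low Ly6c2 level was not tested. Whether the cells came recently from monocytes was not tested either. They are called Ccr2-expressing CMs after the rule that chose them.

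The study sorted macrophages (macs) from 5 mouse tissues and asked by 10x Genomics 3′ single-cell RNA sequencing how deletion of the transcription factor gene Zeb2 alters them. Both colon libraries came from mice with Zeb2fl/fl alleles on a C57Bl/6 background. WT CMs had no CRE, and Zeb2KO CMs came from Fcgr1-cre x Zeb2fl/fl mice, in which the Fc receptor gene Fcgr1 drives CRE in macs and, by the study's own description, in some lymphocytes and dendritic cells too. The labels give these genotypes for the WT and Zeb2KO libraries of every tissue, whereas the methods name Clec4f-cre for Zeb2KO Kupffer cells and Itgax-cre for Zeb2KO alveolar macs, and a further liver library came from Nr1h3fl/fl mice without CRE. By the methods of the study, animals of both sexes were mostly 6 to 8 weeks old, and CMs were sorted as CD45+ CD64+ F4/80+ cells without Ly6C, Ly6G and SiglecF, a gate that removes Ly6C+ monocytes by design. Each tissue and genotype had 1 library and the number of animals behind it was not given in the sources used here, so no test between groups was possible and every interval covers counting error only. Libraries held 11133411 to 47400786 UMIs, with WT CM the deepest, and 18 to 48 barcode sequences of WT CM recurred in each other library. Between 1 and 10 of the recurring sequences belonged to Ccr2-expressing CMs.

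Most resident macs of the adult gut are replaced from the blood. Ly6C-high monocytes that express CCR2 enter the lamina propria, acquire MHC class II, and with time lose Ly6C and CCR2 and gain the scavenger and clearance receptors of mature CMs. MHC class II molecules present peptides taken up by endocytosis to CD4+ T cells, and CD74 and the H2-DM proteins guide peptide loading. C1q, which opens the classical complement pathway, is made at high levels by tissue macs.

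Ccr2-expressing CMs held a median of 4 Ccr2 UMIs and at most 21, and their summed level was 430 UMIs per 1000000 UMIs of the group (CPM; exact 95% Poisson interval 417 to 444). Ccr2 (chr9:124101950-124113557 in the mm10 annotation) chose the cells, so these values describe the rule. Of the 759 cells, 170 had exactly 2 Ccr2 UMIs and 129 had exactly 3, while 403 cells just outside the rule had exactly 1. The C1q rule selected hardly at all, since 4984 of 4989 barcodes met it. C1q UMIs also reached 5 in 186 of 187 cells with at least 30 UMIs of fibroblast genes, at a median of 21 UMIs, against a median of 178 in Ccr2-expressing CMs. No barcode with 2 Ccr2 UMIs had fewer than 5 C1q UMIs, and 4 of the 759 cells lay between 5 and 9. Among the 187 fibroblast-rich cells, which should lack Ccr2, 2 (1.07%, exact binomial interval 0.130% to 3.81%) reached 2 Ccr2 UMIs at a median of 8645 UMIs per cell, and 15 (8.02%) had at least 1. That share covers fibroblast-rich cells only, which were less deep than Ccr2-expressing CMs (median 11487 UMIs). In the whole library 16.6% of C1q cells were Ccr2-expressing CMs. The part of RNA free in the droplets and of mixed droplets in that share was not tested.

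Ccr2-expressing CMs were deeper and their RNA composition differed from that of Ccr2-0 CMs. They held a median of 11487 UMIs and 2694 genes per cell, against 8615 UMIs and 2492 genes. The median mitochondrial share was 2.01% against 2.80%. C1q genes took up a median of 1.61% of UMIs against 1.99%, and of the chains C1qc differed most (3894 against 5408 CPM) and C1qb least (6179 against 6700 CPM). A deeper cell reaches 2 UMIs more easily, so depth and Ccr2 level cannot be told apart for a single cell. In cells thinned at random to 4000 UMIs before the rule was applied, 9.08% (8.22% to 9.99%) of C1q cells met it. With each of the 759 cells matched to a Ccr2-0 CM of like depth, 48 genes were higher and 197 lower by the measure described next.

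Levels were compared as the log2 ratio of CPM plus 1, Ccr2-expressing over Ccr2-0 CMs, among the 5157 genes that reached 20 CPM in the higher group. A gene was counted as higher or lower when it differed at least 2-fold on this scale. Ccr2-expressing CMs had 55 such genes higher (1.07% of genes considered) and 212 lower (4.11%), and the median log2 ratio of all genes was -0.16. Scaling by trimmed means (TMM) moved every log2 ratio by 0.23 and gave 90 higher and 151 lower, and median-of-ratios scaling gave 94 and 149. Every cell, gene and count here comes from 1 library in which cells were chosen on Ccr2, so these numbers describe the cells and carry no test.

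**Figure D1:**
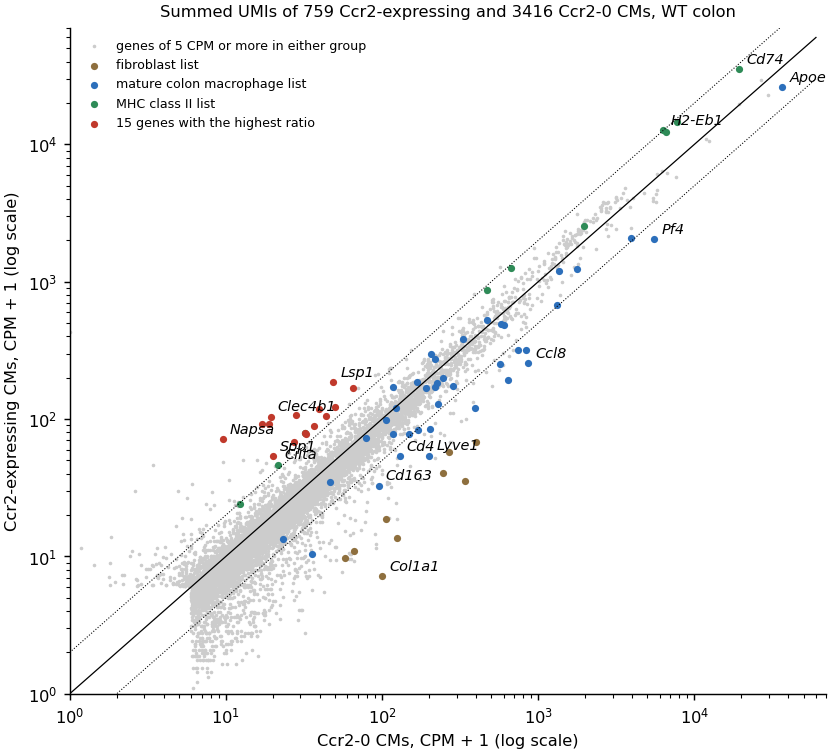
Each point is a gene, with CPM plus 1 in the 3416 Ccr2-0 CMs on the horizontal axis and in the 759 Ccr2-expressing CMs on the vertical axis, both on log scales. The solid line marks equal levels and the dotted lines a 2-fold difference. Napsa (70.5 against 8.53 CPM) and Clec4b1 lie above the lines, MHC class II genes lie close to the upper line at high levels, and Lyve1, Ccl8 and the fibroblast genes lie below the lower line.

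The gene with the highest ratio among genes of at least 50 CPM was Napsa, which encodes the aspartic protease napsin A. Napsa stood at 70.5 CPM (65.2 to 76.2) in Ccr2-expressing CMs and at 8.53 CPM (7.55 to 9.61) in Ccr2-0 CMs, a log2 ratio of 2.91, and was seen in 38.6% against 5.796% of cells. Clec4b1, a C-type lectin gene of myeloid cells, stood at 103.0 against 18.3 CPM (log2 ratio 2.43) and in 50.2% against 13.4% of cells. Both genes were thus seen in a larger share of Ccr2-expressing than of Ccr2-0 CMs.

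Other surface receptor and membrane genes among the 15 highest were Sirpb1c of the SIRP family (90.8 against 16.001 CPM), Ms4a4c of the MS4A family (91.5 against 18.01 CPM), the inhibitory lectin gene Clec12a (116 against 38.6 CPM) and the SLAM family gene Slamf8 (104 against 42.8 CPM). Lsp1, an F-actin binding protein of leukocytes, was at 185 against 47.5 CPM. Secreted products included Mmp12, the macrophage elastase (106 against 27.01 CPM), and Spp1, which encodes osteopontin (52.7 against 19.0 CPM). A small part of the cells held most of these UMIs, since the top 5% of Ccr2-expressing CMs held 60.1% of their Mmp12 and 77.7% of their Spp1 UMIs, and Spp1 was seen in 17.1% of them. Ptgs2, the inducible cyclooxygenase, stood at 67.4 against 26.3 CPM, and Bcl2a1d, a relative of the survival factor BCL2, at 169 against 64.4 CPM. The remaining 4 of the 15 were H2-DMb2, Arl5c, Naaa and Sowahc, with log2 ratios of 1.27 to 1.31. Sirpb1c, Ms4a4c, Bcl2a1d and H2-DMb2 have close copies in the genome, and reads shared between copies make their levels uncertain.

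Some of the genes that stood out were carried by few cells. The C-type lectin gene Cd209a was at 47.5 against 8.56 CPM, yet a UMI was seen in 13.6% of Ccr2-expressing and 5.12% of Ccr2-0 CMs. The chemokine gene Ccl17 was at 29.2 against 1.63 CPM (log2 ratio 3.52). In cells thinned to 4000 UMIs it was seen in 1.49% (0.744% to 2.64%) of Ccr2-expressing against 0.553% of Ccr2-0 CMs. Ear2, a ribonuclease gene of the eosinophil-associated family with close paralogs and named here after its values were seen, was at 45.2 against 2.42 CPM, with a UMI in 11.5% against 1.99% of cells. Of 63 thinned Ccr2-expressing CMs with Cd209a, 13 also had Ear2 (20.6%), and of the 677 without it 6.20% had Ear2. After thinning, Cd209a was seen in 63 of 740 Ccr2-expressing and 92 of 3076 Ccr2-0 CMs, and Ear2 in 55 and 30. Cd209a and Ear2 were thus each seen in few Ccr2-expressing CMs and partly in the same cells, and neither was confined to them.

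The 15 genes with the lowest ratio included many genes that fibroblasts express. Col1a1, a chain of type I collagen, was at 6.16 against 98.5 CPM (log2 ratio -3.80), the matrix proteoglycan gene Dcn at 34.3 against 337 CPM, and Sparc at 67.0 against 400.4 CPM. The fibroblast list had 9 of its 10 genes at 20 CPM and all 9 were lower, with a median log2 ratio of -2.60. Ccr2-expressing CMs held 2.54 fibroblast UMIs per 10000 and Ccr2-0 CMs 17.1, and 3.16% against 9.31% of the cells held at least 10 such UMIs. Cells rich in fibroblast RNA were therefore more frequent among the Ccr2-0 CMs. With cells holding at least 10 UMIs of a lymphoid, neutrophil, eosinophil, mast cell, fibroblast, epithelial or endothelial list left out of both groups (717 and 3000 cells), 4 fibroblast genes reached 20 CPM, none was lower, and their median was -0.28.

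Without those cells, 58 of 5051 genes were higher (1.15%) and 139 were lower (2.75%). None of the 15 lowest genes was then on the fibroblast list. Fcna, a ficolin of the lectin pathway of complement, was at 64.8 against 290.4 CPM (log2 ratio -2.15). Slc40a1, the iron exporter ferroportin, was at 24.96 against 112 CPM, and Gas6, a bridging ligand for clearance receptors, at 97.0 against 349.8 CPM. The growth factor gene Igf1 was at 74.2 against 251 CPM. Lyve1, Folr2, Cbr2, Ccl8, Cd209f, Ednrb, Tslp, Cela1, Cp, Ctla2b and Serpinb6a made up the rest, with log2 ratios of -1.76 to -2.10. Tmsb10, an actin-sequestering peptide of motile cells, was among the highest in this comparison (809 against 231 CPM).

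MHC class II genes were higher in Ccr2-expressing CMs as a group. Cd74, H2-Aa, H2-Ab1 and H2-Eb1 were abundant in these cells, whereas H2-DMb2 was at 78.3 CPM and Ciita at 45.5 CPM. Of 12 genes on the list, 10 reached 20 CPM, all 10 had a ratio above 0, and the median log2 ratio was 0.90, against -0.16 over all genes. Cd74 was at 35064 CPM (34942 to 35186) against 19276 CPM, H2-Aa, the alpha chain of I-A, at 12270 against 6605 CPM, H2-Ab1, its beta chain, at 14461 against 7698 CPM, and H2-Eb1, the beta chain of I-E, at 12699 against 6303 CPM. H2-Eb1 (log2 ratio 1.01), H2-DMb2 (1.31) and Ciita, the master transactivator of these genes (45.5 against 20.5 CPM, 1.11), passed 2-fold, and 6 more had ratios of 0.86 to 0.95. Over all genes 1.07% were higher. The number that passed 2-fold, 3 of 10, was 9 under TMM scaling, 1 when Ccr2-0 CMs were matched on depth and 0 when they were matched on depth and C1q share. Ctss, the protease that degrades CD74, differed least (2524 against 1971 CPM, 0.36).

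Because these genes were higher together, their promoters are shown, each with 250 bases before and 50 after the start of transcription (RefSeq, GRCm38.p6). The motif TGATTGG, the inverted CCAAT form known as the Y box of MHC class II promoters, is in capitals and was searched on both strands. Of the 12 listed genes, 9 had a promoter in the reference and 7 of those held the motif, all on the sense strand, whereas 2217 of 27025 promoters of all genes did (8.20%). In these 7, counted whether or not the gene reached 20 CPM, the motif started 45 to 102 bases before the start of transcription. It was searched because it is known in these promoters, so the share only describes them. The promoters shown belong to H2-Aa and H2-Eb1, whose RNA was at high level, and to both H2-DM beta genes. They lie at chr17:34287774-34288073 (H2-Aa, minus strand), chr17:34305617-34305916 (H2-Eb1), chr17:34152941-34153240 (H2-DMb1) and chr17:34144999-34145298 (H2-DMb2), the last 3 on the plus strand.
H2-Aa: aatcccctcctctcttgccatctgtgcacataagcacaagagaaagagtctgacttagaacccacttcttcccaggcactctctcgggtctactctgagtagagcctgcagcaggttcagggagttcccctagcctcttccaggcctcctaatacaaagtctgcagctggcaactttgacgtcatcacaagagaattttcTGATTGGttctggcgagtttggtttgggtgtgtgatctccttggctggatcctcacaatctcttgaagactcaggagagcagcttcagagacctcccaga
H2-Eb1: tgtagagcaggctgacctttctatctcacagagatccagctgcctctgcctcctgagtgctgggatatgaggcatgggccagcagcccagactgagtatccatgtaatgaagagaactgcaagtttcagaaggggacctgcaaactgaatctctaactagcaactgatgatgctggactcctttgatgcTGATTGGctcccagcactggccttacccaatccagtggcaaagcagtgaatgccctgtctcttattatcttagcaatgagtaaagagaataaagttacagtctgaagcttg
H2-DMb1: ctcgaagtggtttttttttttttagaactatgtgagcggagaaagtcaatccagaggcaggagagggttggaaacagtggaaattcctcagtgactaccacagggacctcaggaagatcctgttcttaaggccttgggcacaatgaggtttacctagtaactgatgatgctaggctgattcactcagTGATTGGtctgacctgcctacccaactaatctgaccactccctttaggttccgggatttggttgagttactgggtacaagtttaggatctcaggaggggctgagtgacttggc
H2-DMb2: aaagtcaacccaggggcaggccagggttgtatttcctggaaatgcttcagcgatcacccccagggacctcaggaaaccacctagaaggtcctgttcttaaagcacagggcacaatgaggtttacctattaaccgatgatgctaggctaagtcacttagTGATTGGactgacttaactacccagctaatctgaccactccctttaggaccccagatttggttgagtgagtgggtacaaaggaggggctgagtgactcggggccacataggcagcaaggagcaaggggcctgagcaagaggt
H2-DMa and Ctss did not hold these letters in this window. Among the 47 genes with a promoter in the reference that were higher in Ccr2-expressing CMs, 4 held the motif (8.51%), and among the genes considered 10.1% did. The match describes the sequences and does not show that a factor binds there.

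In single cells the groups differed in the share of cells with a high MHC class II level. All cells were thinned to 4000 UMIs, which left 740 Ccr2-expressing CMs, with no cell removed for another type's RNA, and 2682 Ccr2-0 CMs, from which cells holding 10 UMIs of another type had been left out. Ccr2-expressing CMs held a median of 326 class II list UMIs (quartiles 261 and 388), whereas Ccr2-0 CMs spread over a low and a high group with a median of 99 (quartiles 36 and 304). The study likewise divided CMs into cells of high and low Cd74, and reported distinct expression profiles for them in mice without CRE. Ccr2-0 CMs were thus a mix of class II levels. At least 200 UMIs were reached by 87.7% (85.1% to 89.98%) of Ccr2-expressing CMs and by 38.1% (36.3% to 40.0%) of Ccr2-0 CMs. Under 100 UMIs lay 3.11% and 50.1%. Read the other way, 1.30% of cells with under 100 class II UMIs, 15.1% of cells with 100 to 199 and 33.6% of cells with 200 or more were Ccr2-expressing CMs, here with cells holding 10 UMIs of another type left out of all counts. Ccr2 was counted before thinning, and median depth was 8448.5, 8928 and 10765.5 UMIs in these ranges, so depth was not removed from the shares.

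**Figure D2:**
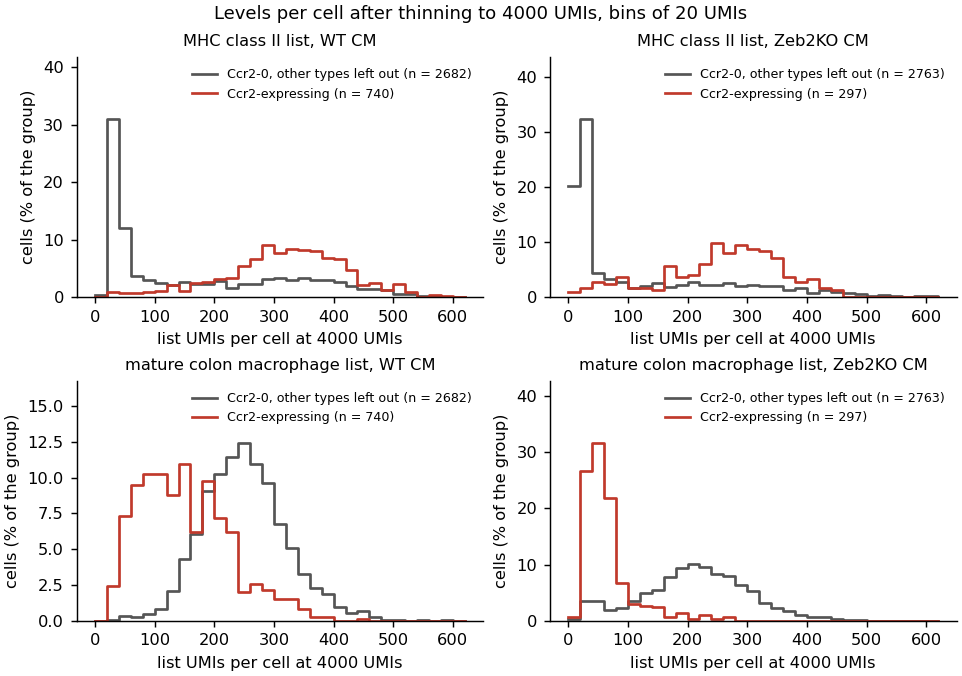
Histograms of list UMIs per cell after thinning to 4000 UMIs, in bins of 20 UMIs on the horizontal axis, with the percent of the group on the vertical axis, for all Ccr2-expressing cells (red) and for Ccr2-0 cells without those holding 10 UMIs of another type (grey) of WT (left) and Zeb2KO (right) CMs. Ccr2-expressing WT CMs form 1 peak of MHC class II UMIs with a median of 326, Ccr2-0 CMs form a low and a high group, and the mature list is shifted down in Ccr2-expressing cells (median 142 against 246).

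Genes of classical monocytes were mixed. Of 40 on the monocyte list, 30 reached 20 CPM, and 7 were higher (Napsa, Lsp1, Gpr141, Clec4e, Emb, S100a4 and Tmsb10) and 3 were lower (F13a1, Mgst1 and Clec4d), with a median log2 ratio of 0.25. Over all genes 1.07% were higher and 4.11% lower, and the median was -0.16. The calcium-binding S100a4 was at 212 against 93.1 CPM, Emb, a cell adhesion protein, at 167 against 69.4 CPM, and Clec4e, the lectin Mincle, at 22.7 against 7.44 CPM. F13a1, the coagulation factor XIII A chain, was at 172 against 503 CPM. Without cells of other types 10 were higher and 3 were lower (median 0.35), and Plac8, Fn1 and S100a6 were the ones added. Plac8, a gene of early monocytes, was at 92.4 against 97.2 CPM in all cells but at 92.8 against 37.1 CPM (log2 ratio 1.30) without those cells. Fn1, fibronectin, which fibroblasts also make, went from 42.6 against 51.7 CPM to 43.5 against 8.92 CPM (2.17).

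The defining genes of Ly6C-high monocytes were at or near 0. Ly6c2 was at 3.30 CPM (2.23 to 4.71) against 6.12 CPM, in 2.77% against 1.64% of cells, and at 1.90 against 1.353 CPM without cells of other types. S100a8 was at 0.330 CPM and Vcan, versican, at 0.660 CPM, and no UMI of S100a9 was seen among 9086098 UMIs, which allows up to 0.330 CPM for a count of 3. Chil3, a chitinase-like protein of monocytes and macs, was the exception, at 10.5 CPM (8.46 to 12.8) against 0.188 CPM, although it stayed under the level considered. The sort excluded Ly6C+ cells, and its part in the low Ly6c2 level was not tested. With the same sort, Ly6c2 was at 59.5 CPM in Ccr2-expressing CMs of the Zeb2KO library.

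Genes of mature CMs were lower as a group. Of 40 on the list, 39 reached 20 CPM, none was higher, 13 were lower, and the median log2 ratio was -0.61, against 1.07% higher, 4.11% lower and a median of -0.16 over all genes. The largest differences were in Lyve1, a hyaluronan receptor (53.2 against 200 CPM, log2 ratio -1.89), Timd4, a receptor for phosphatidylserine on dying cells (9.35 against 34.7 CPM, -1.79), the chemokine Ccl8 (255 against 860 CPM, -1.75), the carbonyl reductase Cbr2 (119 against 395 CPM, -1.73) and the folate receptor Folr2 (193 against 638 CPM, -1.72). Cd163, the haemoglobin scavenger receptor, was at 31.7 against 94.2 CPM (-1.54), Pf4 at 2032 against 5502 CPM, the scavenger receptor Stab1 at 316 against 833 CPM, the mannose receptor Mrc1 at 318 against 738 CPM and Cd4, which is found on long-lived gut macs, at 52.6 against 129 CPM. Cd4 is also a T cell gene, and the T cell list took up 0.370 UMIs per 10000 in Ccr2-expressing CMs and 0.258 in Ccr2-0 CMs. Vcam1, Fcrls and Gpnmb completed the 13. All were measured against Ccr2-0 CMs of every class II level, and values of some of them for cells matched on class II follow below.

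Other genes that mark macs in general did not pass 2-fold. Cx3cr1, the fractalkine receptor, was at 492 against 573 CPM (log2 ratio -0.22), Adgre1, which encodes F4/80 and was used in the sort, at 481 against 605 CPM (-0.33), Fcgr1, which encodes CD64 and was also used there, at 185 against 167 CPM (0.14), and Csf1r, the receptor for colony-stimulating factor 1, at 758 against 988 CPM (-0.38). Mertk, a clearance receptor, was at 12.4 against 22.2 CPM (-0.79). Apoe, the most abundant of these genes, was at 26145 against 36500 CPM (-0.48).

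Class II level and the mature genes overlapped in part. Each of the 717 Ccr2-expressing CMs with fewer than 10 UMIs of every other type was matched to the nearest such Ccr2-0 CM in depth and class II share, a comparison added after the data had been seen, and 37 of 4770 genes were then higher (0.776%) and 33 lower (0.692%), with a median of all genes of -0.03. The direction of several genes turned or their difference vanished: Lyve1 was at a log2 ratio of 0.25, Cd163 at 0.25, F13a1 at 0.11, Cd36, a lipid scavenger receptor, at 0.02 and Cbr2 at -0.02. Lyve1 stood at 52.6 against 44.1 CPM in this comparison. Folr2 (-0.35), Fcna (-0.39), Gas6 (-0.68), Igf1 (-0.54) and Ednrb (-0.10) stayed lower, but by less than 2-fold. Larger differences remained in other genes, with log2 ratios of -2.04 for Gpnmb, a glycoprotein of lipid-laden macs, -1.51 for Cd4 and -1.15 for Vcam1. Ccl8 was at -1.004 and Apoe at -0.94 (25906 against 49779 CPM). Slc40a1 (-1.26), Cela1 (-1.22) and Cp (-1.10) also remained more than 2-fold lower. Of 37 mature genes that reached 20 CPM, 6 were lower and none was higher, at a median of -0.62. Some mature genes thus differed between cells of equal class II level and others did not.

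Against class II matched cells, the highest ratios belonged to S100a4 (log2 ratio 3.02), Retnla, a resistin-like secreted protein (2.93), Cd209a (2.67), Lsp1 (2.44), Napsa (2.32), Clec12a (2.28) and Clec4b1 (2.20). Retnla was seen in 30.4% of Ccr2-expressing and 24.8% of Ccr2-0 CMs, and the top 5% of Ccr2-expressing CMs held 89.4% of that group's Retnla UMIs. Without matching, its log2 ratio was 1.07 in WT and 0.34 in Zeb2KO CMs. S100a6 (1.96), Fn1 (2.22) and Plac8 (1.25) were also higher. Of the 30 monocyte genes considered 8 were higher and none was lower, with a median of 0.39, against -0.03 over all genes. Within thinned cells of at least 200 class II UMIs, the mature list took up a median of 139 UMIs in Ccr2-expressing CMs and 272 in Ccr2-0 CMs, and 46 against 76 without Apoe.

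Some secreted mediators passed 2-fold, and none of their receptors considered here did. Of 13 cytokine and mediator genes that reached 20 CPM, 2 were higher, namely Ptgs2 and Il1b, which encodes interleukin 1 beta (1286 against 566 CPM, log2 ratio 1.18), and none was lower (median 0.41), against 1.07% higher and 4.11% lower over all genes. Tnf was at 166 against 141 CPM and Il10, the anti-inflammatory cytokine, at 34.0 against 45.7 CPM. Of 17 chemokine genes, Ccl17 was higher and Ccl8, Ccl24 and Pf4 were lower (median 0.24). Of 9 chemokine and complement receptor genes other than Ccr2 none passed 2-fold in either direction (median -0.11), with Ccr1 at 204 against 215 CPM. None of 15 growth factor and TGF-beta receptor genes passed 2-fold either, although Tgfbr2 came close (76.4 against 148 CPM, -0.95). The 12 interferon response genes had a median of 0.20 and none passed 2-fold. The upward shift of 0.23 under TMM scaling is larger than the distance from 0 of the chemokine receptor median, whose sign depends on the scaling.

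Of 19 scavenger and clearance genes 7 were lower and none was higher (median -0.42), against 4.11% lower and a median of -0.16 over all genes, with Gas6 at 98.9 against 342 CPM and Cd36 at 110 against 284 CPM, while Axl, a receptor for Gas6, was at 170 against 116 CPM. Against class II matched cells 1 of 17 was lower (median -0.20), and 0.692% of all genes were. Of 21 lysosomal genes 1 was lower, Ctsl (288 against 653 CPM), a share near that of all genes, and none was higher (median -0.32). Psap, a precursor of sphingolipid activators, was at 3802 against 2586 CPM. Of 10 other complement genes 3 were lower, among them Cd55 and C4b, and 3 of 10 were lower without cells of other types as well. Against class II matched cells 0 of 8 were lower (median -0.045). Among Fc receptor and lectin genes 3 were higher (Clec4b1, Cd209a and Clec12a) and 3 lower (Cd209f, Cd209g and Mrc1) of 17, against 1.07% higher and 4.11% lower over all genes. With class II matching 3 of 17 were higher and 0 lower.

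Most transcription factors of the lineage did not pass 2-fold. Of 23 considered, Bhlhe40 was higher (55.4 against 24.0 CPM, log2 ratio 1.17) and Tcf4 lower (69.9 against 161 CPM, -1.20), with a median of 0.10, against 1.07% higher and 4.11% lower over all genes. Spi1, which encodes PU.1, was at 494 against 475 CPM and Maf at 270.1 against 522 CPM (-0.95), while Zeb2 was at 399 against 365 CPM. Of 10 cell cycle genes none passed 2-fold, and Mki67, a marker of dividing cells, was seen in 4.59% (3.20% to 6.36%) of thinned Ccr2-expressing CMs and 4.51% (3.76% to 5.37%) of Ccr2-0 CMs. The 16 dissociation stress genes had a median of 0.17 and none passed 2-fold.

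The dendritic cell list took up 3.57 UMIs per 10000 in Ccr2-expressing CMs and 2.61 in Ccr2-0 CMs, and 3 of its 16 genes reached 20 CPM, at a median log2 ratio of 0.59. Of these Cd209a, described above, was higher (2.34), while Batf3, a transcription factor of dendritic cells, was at 108 against 71.9 CPM. Flt3, the growth factor receptor of dendritic cells, was at 1.98 (1.17 to 3.13) against 0.314 CPM and Zbtb46, a dendritic cell transcription factor, at 0.991 against 2.20 CPM. At least 10 UMIs of the list were held by 72 Ccr2-expressing CMs (9.49%) and by 139 Ccr2-0 CMs (4.07%). With those cells left out of both groups, 3 of 10 class II genes and 57 of all 5170 genes considered were higher, and the part of such cells in the class II levels was not tested further. Over the other lists, T cell genes took up 0.370 against 0.258, B and plasma cell genes 3.68 against 5.12 and neutrophil genes 0.430 against 0.587 UMIs per 10000. NK cell and innate lymphoid genes took up 0.405 against 0.374, epithelial genes 0.477 against 1.26 and endothelial genes 0.355 against 0.582 UMIs per 10000, and eosinophil and mast cell genes were near 0 in both. A single Ccr2-expressing CM held 2188 B and plasma cell UMIs. Of the neutrophil genes S100a9, Retnlg, Camp and Ngp were at 0, and of the eosinophil and mast cell genes Epx, Il5ra, Cpa3, Mcpt1, Mcpt2, Ms4a2 and Fcer1a were at 0.

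Some levels were ordered by the number of Ccr2 UMIs in the cell, the count on which the rule rests, and others were not. Groups with 0, 1, 2, 3 to 5 and at least 6 Ccr2 UMIs held 3416, 403, 170, 317 and 272 cells. Class II list UMIs per 10000 were 431, 605, 728, 812 and 810 in this order, so that the level was already raised in cells with 1 Ccr2 UMI and equal in both highest groups. Mature list UMIs were 599, 579, 473, 401 and 342. Napsa stood at 8.53, 24.8, 44.0, 72.5 and 83.6 CPM and Clec4b1 at 18.3, 30.4, 59.8, 86.6 and 145 CPM. Lyve1 stood at 200, 115, 81.8, 38.4 and 52.6 CPM, so the order was not kept at the top. Monocyte list UMIs were 90.8, 87.5, 91.9, 91.0 and 108, with no steady order. Median depth was 8615, 10234, 11343, 10951 and 12084 UMIs and fibroblast UMIs per 10000 were 17.1, 10.5, 3.598, 2.42 and 2.07, so that both moved with the Ccr2 count and their part in these trends was not tested.

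**Figure D3:**
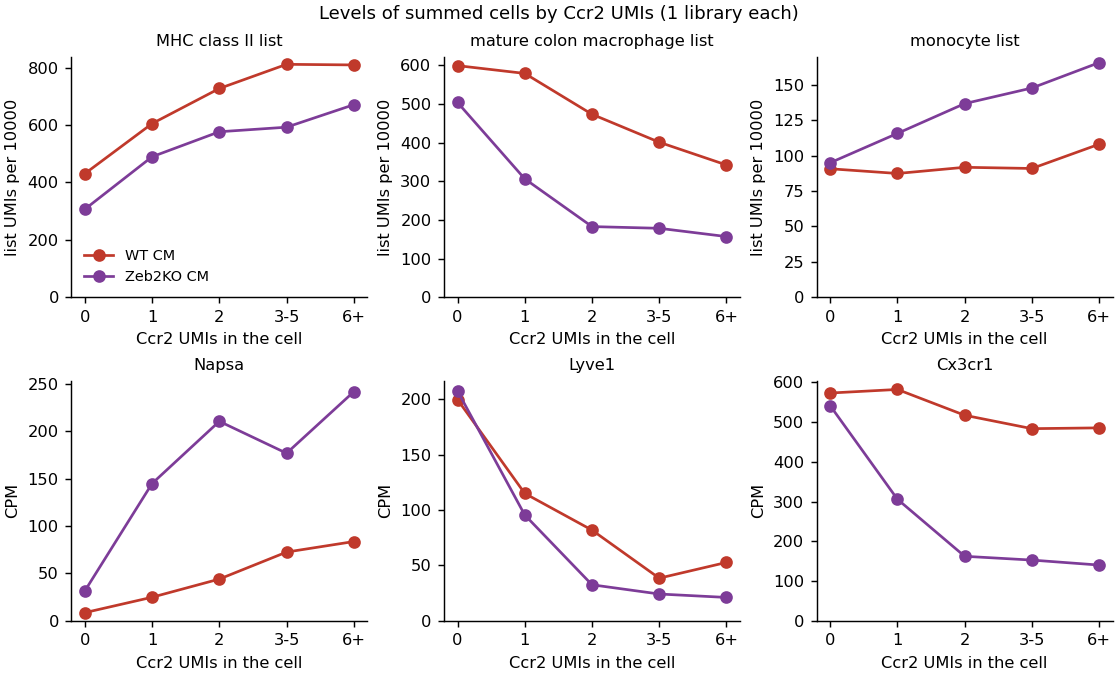
Summed levels in cells with 0, 1, 2, 3 to 5 and 6 or more Ccr2 UMIs (horizontal axis), as list UMIs per 10000 in the upper panels and CPM in the lower panels, for WT (red) and Zeb2KO (purple) CMs, with 1 library each and no error bars. In WT CMs the MHC class II list climbs from 431 to 810, the mature list drops from 599 to 342 and Cx3cr1 changes little, whereas in Zeb2KO CMs Cx3cr1 is at 541 CPM in cells with 0 and 140 CPM in cells with 6 or more Ccr2 UMIs.

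The Ccr2-expressing CMs were not uniform. They were split into tertiles of their C1q share of UMIs, after cells with 10 UMIs of another type had been left out and the rest thinned to 4000 UMIs (224, 237 and 238 cells). C1q share was up to 1.30% in the lowest tertile and 1.80% to 3.47% in the highest, and since C1q belongs to the rule the tertiles are a description. Plac8 was seen in 31.2% (25.2% to 37.8%) of cells of the lowest tertile, 9.28% of the middle and 11.8% (7.96% to 16.6%) of the highest. Chil3 was seen in 8.48%, 1.27% and 0.840%, Lsp1 in 62.5%, 38.4% and 29.4%, and Napsa in 31.7%, 19.0% and 17.6%. These 4 genes of the monocyte list were thus seen most often at low C1q share, whereas F13a1, on the same list, was at 142, 142 and 220 CPM in the tertiles before thinning (239 cells each). Clec4b1 did not follow this order (29.9%, 32.1% and 28.2%), and Il1b did (85.3%, 80.2% and 70.2%).

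In the opposite direction, Cd4 was seen in 9.82% (6.26% to 14.5%), 17.3% and 18.9% (14.1% to 24.5%) of cells, and Lyve1 in 11.2%, 10.5% and 17.2%, with overlapping intervals. Mature list UMIs had medians of 89, 144 and 191, and 29, 49 and 63 without Apoe. Class II medians were 297, 319 and 370 and monocyte list medians 47, 30 and 32. For comparison, Plac8 was seen in 13.7% (12.4% to 15.1%) and Lyve1 in 37.1% (35.3% to 39.0%) of all thinned Ccr2-0 CMs without other types. In C1q tertiles of unthinned Ccr2-0 CMs, Il1b was at 1036, 609 and 287 CPM and Napsa at 13.4, 8.78 and 5.21 CPM. Their order was thus not particular to Ccr2-expressing CMs. Lyve1 was at 152, 162 and 289 CPM there, Plac8 at 40.3, 35.3 and 36.4 CPM, Lsp1 at 46.8, 28.4 and 37.1 CPM and Cd4 at 131, 140 and 135 CPM. Plac8 was seen in 84.4% of fibroblast-rich cells, which had been left out here. Dendritic cell list genes took up 4.54 UMIs per 10000 in the lowest tertile, 3.27 in the middle and 3.23 in the highest, and median depth before thinning was 8807, 11892 and 13265 UMIs. Their part in the differences between tertiles was not tested.

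**Figure D4:**
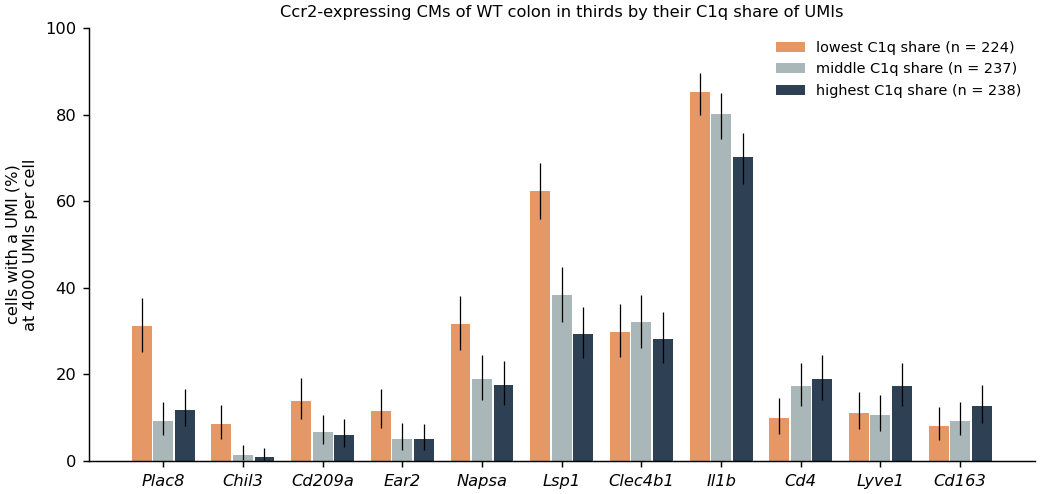
Percent of Ccr2-expressing WT CMs with a UMI of each gene at 4000 UMIs per cell (vertical axis), in tertiles of C1q share of UMIs, with exact binomial 95% intervals as error bars (224, 237 and 238 cells). Plac8, Chil3 and Lsp1 are seen most often in the lowest tertile (31.2%, 8.48% and 62.5%), Clec4b1 is near equal, and Cd4 is seen more often in the middle and highest tertiles (17.3% and 18.9%) than in the lowest (9.82%).

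The same rule was applied to the other libraries to show how far it is met elsewhere. In Zeb2KO CMs 307 of 4070 C1q cells met it (7.54%, 6.75% to 8.40%), against 759 of 4578 WT CMs (16.6%, 15.5% to 17.7%). After thinning to 4000 UMIs the shares were 4.12% (3.49% to 4.83%) and 9.08% (8.22% to 9.99%). In Kupffer cells (KCs) of WT liver the share was 0.751% and in Nr1h3fl/fl WT KCs 0.273%, while in Zeb2KO KCs it was 9.15% (8.30% to 10.0%). It was 0.283% in WT and 0.123% in Zeb2KO microglia, 0.0321% and 0.0686% in splenic macs, 1 of 124 C1q cells in Zeb2KO alveolar macs, and could not be given for WT alveolar macs, which held no C1q cell. The colon was thus the tissue with the highest share among WT libraries, with 1 library per tissue. The sorts differed between tissues, and their part in these shares was not tested.

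In Zeb2KO CMs the same comparison (307 against 3499 cells) gave 206 genes higher (3.84% of 5359) and 420 lower (7.84%). Of the 55 genes higher in WT Ccr2-expressing CMs, 44 were also higher in Zeb2KO ones (80.0% of the WT list and 21.4% of the Zeb2KO list), 159 of the 212 lower genes were also lower (75% and 37.9%), and no gene passed 2-fold in opposite directions. Of the 176 lower genes that could be considered in Zeb2KO CMs, 173 had a ratio of the same sign there. The lower genes of both libraries included fibroblast genes. With cells of other types left out, 43 of 58 higher and 105 of 139 lower WT genes were shared with Zeb2KO CMs. The libraries were made from different mice with the same sort, and the same rule chose the cells of both. TMM scaling gave 306 higher and 277 lower in Zeb2KO CMs. Zeb2 itself was at 715 CPM in Zeb2KO Ccr2-expressing and 439 CPM in Ccr2-0 CMs, and the 3′ reads cannot tell a deleted from an intact transcript. The study treats CRE+ colon macs as a mixture of cells without functional Zeb2 and cells presumed to keep an allele. It recognised the cells without Zeb2 by higher Zeb2 reads together with Ms4a1 and Siglecf, and reported that all of them had high Cd74. Ccr2-expressing and Ccr2-0 cells of the Zeb2KO library may therefore differ in deletion, and this was not tested.

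More monocyte and mature genes passed 2-fold in Zeb2KO than in WT CMs. Of 35 monocyte genes considered 16 were higher and 1 lower (median log2 ratio 0.83), and of 40 mature genes 28 were lower and none higher (median -1.59), against medians of 0.25 and -0.61 in WT. Calls were more frequent over all genes too, at 3.84% higher and 7.84% lower in Zeb2KO against 1.07% and 4.11% in WT. Ly6c2 was at 59.5 against 10.2 CPM, Chil3 at 59.5 against 1.67 CPM, Plac8 at 444 against 123 CPM and Spp1 at 447 against 54.8 CPM. Cx3cr1 was at 154 against 541 CPM, a log2 ratio of -1.81, and differed by -0.22 in WT. Mmp12, one of the highest genes of WT, was at 21.3 against 20.4 CPM in Zeb2KO. The median C1q count was 72 UMIs in Zeb2KO Ccr2-expressing CMs against 144 in Ccr2-0 CMs. The MHC class II list had a median log2 ratio of 0.90 in WT and 1.19 in Zeb2KO CMs. In Zeb2KO CMs 10 of 11 genes had a ratio above 0, the lowest was at -0.12, and 7 passed 2-fold, against 3 of 10 in WT. With 1 library of each genotype the difference between the genotypes was not tested.

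**Figure D5:**
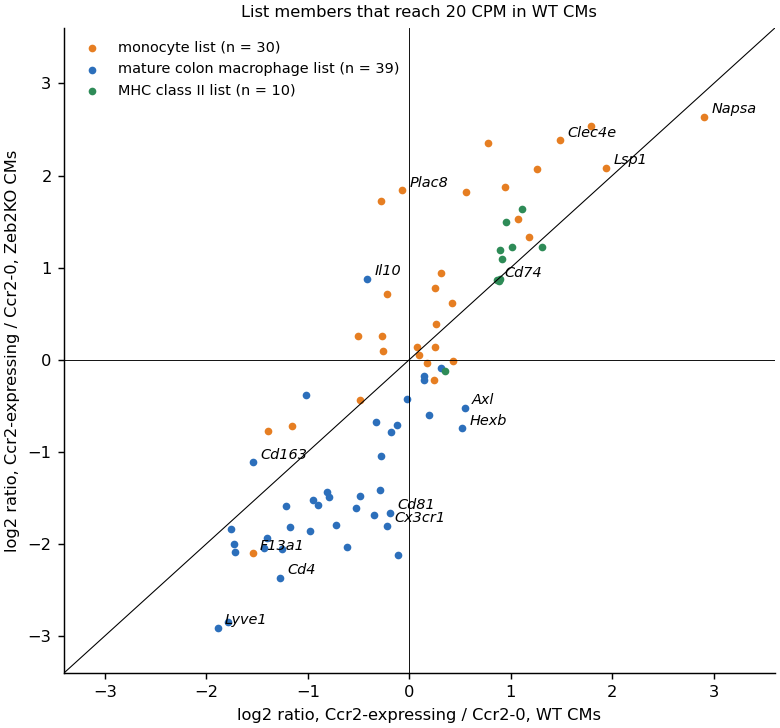
Each point is a gene of the monocyte (orange), mature colon macrophage (blue) or MHC class II (green) list that reached 20 CPM in WT CMs, with its log2 ratio of Ccr2-expressing over Ccr2-0 cells in WT CMs on the horizontal axis and in Zeb2KO CMs on the vertical axis. The diagonal marks equal ratios. Napsa (2.91 and 2.64) and Cd74 (0.86 in both) lie near it, most mature genes lie below it, with Cx3cr1 at -0.22 and -1.81, and Plac8 lies above it at -0.07 and 1.84.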

How the data were processed

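The authors deposited whole-number UMI counts for 27998 genes in each of 11 libraries, which by the methods of the study came from Cell Ranger (also named in the submitters' processing notes) with the mm10 genome, and these counts are the unit used here. All libraries list the genes in 1 order. A cell was dropped when its total UMIs or gene number (log scale, both sides) or its mitochondrial share (upper side) lay over 3 scaled median absolute deviations off the library's median. No doublet caller was run, and leaving out the top 5% of cells by UMIs was tried instead.

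UMIs were summed over the cells of a group, scaled to CPM, and compared as the log2 ratio of CPM plus 1. Intervals are exact Poisson (levels) or Clopper-Pearson (shares) at 95% and cover counting error alone. Thinning drew 4000 UMIs per cell without replacement (seed 7), and shallower cells were left out. Ccr2-expressing CMs, gene lists and markers were chosen with earlier results of these data known, so no list is independent evidence. Genes named were the markers Ccr2, Cd74 and Ly6c2, members of the lists, and, from genes reaching 50 CPM and found in 10% of the cells of whichever group was higher, the 15 with the highest and the 15 with the lowest ratio. Ccr2, C1q genes and genes of mitochondria, ribosomes, immunoglobulins and haemoglobin were not eligible. The same held for the sex-linked genes Xist, Tsix, Ddx3y, Eif2s3y, Kdm5d and Uty. The same rule was applied where cells of other types were left out or cells were matched. TMM factors (edgeR 4.0.16) and median-of-ratios size factors (DESeq2 1.42.0, R 4.3.3) served as scaling alternatives. The steps ran in Python 3.11.15 (numpy 2.4.6, scipy 1.17.1, pandas 2.3.3, matplotlib 3.10.9) and were tested on simulated data. Promoters are RefSeq sequences of GRCm38.p6.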

Additional observations from a re-analysis of the deposited data

How the results depend on the processing

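Each group was 1 library, so the alternatives show what a choice does to a value and not how a value would vary between animals. No paired analysis was possible because each group had 1 library and no test was run. Of 55 genes higher in Ccr2-expressing WT CMs, the count was 106 with a floor of 5 CPM, 31 with 50 CPM, 138 with no floor, 90 with TMM factors, 94 with median-of-ratios factors, 27 after matching on depth and C1q share, 4 for cells with exactly 1 Ccr2 UMI and 134 with cells of 3 UMIs of another type left out. Of 212 lower genes the count was 567, 104 and 933 for those floors, 16 for exactly 1 Ccr2 UMI, 123 with a C1q minimum of 100, 327 with cells of 3 UMIs of another type left out, 139 with 10 UMIs and 33 when, in addition to the 10 UMI limit, cells were matched on depth and class II share (called class II matching here). In Zeb2KO CMs 206 higher genes became 322, 118 and 415 for the floors, 327 with median-of-ratios factors, 41 after matching on C1q share, 113 for exactly 1 Ccr2 UMI, 311 with 3 UMIs of another type left out and 103 after class II matching. The 420 lower genes became 974, 201 and 1538 for the floors, 277 with TMM and 260 with median-of-ratios factors, 105 for exactly 1 Ccr2 UMI, 273 with a C1q minimum of 100, 753 with 3 UMIs of another type left out and 153 after class II matching. The monocyte list had 7 genes higher, 1 for exactly 1 Ccr2 UMI and 12 with 3 UMIs of another type left out, and 3 lower, 5 with a floor of 5 CPM and with none, and 0 for exactly 1 Ccr2 UMI and after class II matching. The mature list had 13 lower, 8 after matching on C1q share, 0 for exactly 1 Ccr2 UMI and 6 after class II matching. MHC class II genes past 2-fold numbered 3, with 9 under TMM and median-of-ratios factors, 8 for the mean of each cell's CPM and with 3 UMIs of another type left out, 1 after matching on depth and with a C1q minimum of 100, and 0 after matching on C1q share or class II share and for exactly 1 Ccr2 UMI. The share of C1q cells meeting the rule was 16.6%, and 9.08% after thinning, 12.9% for at least 3 Ccr2 UMIs and 15.5% with no cell filter.

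The class II matching, the 10 UMI limit and a limit on dendritic cell genes were chosen after seeing the data. Among genes past 2-fold in the comparison as reported, the log2 ratio changed sign under class II matching for Ccl21a (0.074), Fbln1 (0.12), Lum (0.47), Cd209f (0.089), Lyve1 (0.25), F13a1 (0.11), Cd163 (0.25), Ccl24 (0.14), Cd36 (0.018), Cd209g (0.18) and Mgp (0.11). Leaving out cells with 3 UMIs of another type turned Col1a1 (0.084), Fbln1 (0.14), Bgn (0.016), Lum (0.32), Mgp (0.019) and Cd209a (-0.067), which is itself on the dendritic cell list used there, and Lum was at 0.17 with the 10 UMI limit. For cells with exactly 1 Ccr2 UMI S100a4 was at -0.09 and Cd209g at 0.012. The causes were not tested. These are the 20 sign changes among genes past 2-fold. Genes nearer to 0 changed sign too, such as Plac8, from -0.07 to 1.25, and Fn1, from -0.27 to 2.22, under class II matching, as did Ly6c2, from -0.73 to 0.97. With the 10 UMI limit alone Plac8 (1.30) and Ly6c2 (0.30) had already turned, as had Fn1.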
